A study of Mus musculus with 4 samples.

Results

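Levels of 10 genes for secreted Wnt proteins and their secreted antagonists were measured by scRNA-Seq in callus and trabecular bone of control mice and of mice given GC. The genes are the ligands Wnt5a, Wnt5b and Wnt4 and the antagonists Wif1, Sfrp1, Sfrp2, Frzb, Dkk1, Dkk3 and Sost. They were picked by symbol, and all 10 are among the 32285 genes that each matrix lists. The deposit holds 4 libraries, 1 for each tissue and treatment, made from C57BL/6J male mice aged 20 weeks with no engineered allele and collected at week 2. For GC libraries the labels give prednisolone from a slow-release pellet under the skin at 6.25 mg/kg/d, and for control libraries a placebo pellet, with the same wording for callus and trabecular bone. The study's methods describe daily injection for fractured animals, so the route behind the GC callus library is not settled. How many mice each library pools is not given in the sources used here.

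Wnt proteins are lipid-bearing signals that act on nearby cells through Frizzled receptors. One branch of the pathway stabilizes beta-catenin through the co-receptors Lrp5 and Lrp6 and drives bone formation by osteoblasts, and other branches shape cell polarity and the pace of chondrocyte maturation. Secreted antagonists set how far a Wnt signal reaches: Wif1, Sfrp1, Sfrp2 and Frzb bind the Wnt proteins themselves, and Dkk1 and sclerostin, the product of Sost, block the co-receptors. In a healing fracture, cartilage of the callus matures to hypertrophic cartilage and is replaced by bone, and both tissues make Wnt proteins and their antagonists.

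On GRCm38 with GENCODE M21, the ligand genes are Wnt5a on chromosome 14 from 28504750 to 28527448, plus strand, Wnt5b on chromosome 6 from 119432531 to 119544347, minus strand, and Wnt4 on chromosome 4 from 137277489 to 137299726, plus strand. The genes of the Wnt-binding antagonists are Wif1 on chromosome 10 from 121033960 to 121100650, plus strand, Sfrp1 on chromosome 8 from 23411502 to 23449632, plus strand, Sfrp2 on chromosome 3 from 83766321 to 83774316, plus strand, and Frzb on chromosome 2 from 80411970 to 80447625, minus strand. Dkk1 lies on chromosome 19 from 30545863 to 30549665, Dkk3 on chromosome 7 from 112116017 to 112159057 and Sost on chromosome 11 from 101962458 to 101967015, all on the minus strand. All 10 are protein-coding and none overlaps another gene on its own strand, and on the opposite strand Wnt5a overlaps Gm2670, Wnt5b overlaps Fbxl14 and Sfrp2 overlaps Gm26771.

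Because these genes are read here in GC-treated bone, the 250 bases before each RefSeq start were searched on both strands for the core letters bound by TCF/LEF factors, CTTTGA, and for AGAACA, the repeated core of a glucocorticoid receptor site. RefSeq windows on GRCm38.p6 were found for 7 of the 10 genes, 9 windows in all, of which 3 belong to Wnt5b. The core CTTTGA was in 3 of the 9 windows and in 13.8% of all 32851 windows, and the receptor core was in 1 of the 9 and in 16.1% of all. The full glucocorticoid receptor site, in which that core is followed by 3 bases and its own reverse complement, was in 0 of the 9 and in 3 windows of all. The 5 matches are shown with 12 bases on either side, read on the minus strand from 5′ to 3′ with the match in capitals. RefSeq starts can differ from the ends of the GENCODE spans given above. The Frzb and Wnt5b stretches, and the Dkk1 stretch 117 bases before its start, lie within those spans. TCAAAG and TGTTCT are the same letters read on the other strand, and a match describes letters only.
Frzb, TCF/LEF core, 95 bases before the start, chr2:80447474-80447503: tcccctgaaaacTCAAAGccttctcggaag
Wnt5b, TCF/LEF core, 71 bases before a start, chr6:119449440-119449469: gagtaagtctctCTTTGAtctgctccctgt
Dkk1, TCF/LEF core, 174 bases before the start, chr19:30549653-30549682: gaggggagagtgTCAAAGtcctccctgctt
Dkk1, TCF/LEF core, 117 bases before the start, chr19:30549596-30549625: ctcctcccaaagCTTTGAaatcccatcccg
Wnt5b, receptor core, 234 bases before another start, chr6:119467428-119467457: ggtcagctcgacTGTTCTggaaaccttaat

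After filtering, 3832 to 6890 cells a library remained, with 33883005 to 80293753 unique molecular identifiers (UMIs, each a captured RNA molecule) and medians of 3297 to 6243.5 UMIs a cell. Pairs of libraries shared 6 to 10 cell barcodes. The GC callus matrix lists only called cells, and the other 3 list empty droplets too. Cells were clustered without the Wnt genes, and clusters were named "X-like" from markers, 16 classes in callus and 12 in trabecular bone. Fkbp5, a target of the glucocorticoid receptor, was higher with GC in 14 of 16 callus classes and 9 of 9 trabecular classes, and Tsc22d3, another target, in 11 of 16 and 9 of 9. Stromal-like cells of callus were among the exceptions, with Fkbp5 at 37.1 counts per 1000000 UMIs of the class (CPM) in control and 30.2 in GC. With 1 library a group there is no replicate error and no test between groups, and every interval here is a 95% interval for counting error only. Fewer cells of a kind within a class and less RNA of a gene in each cell cannot be told apart from a class sum.

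Nearly all UMIs of the 10 genes in callus came from 4 skeletal classes, the chondrocyte-like, hypertrophic chondrocyte-like, stromal-like and osteoblast-like cells. Depending on the gene, these classes held 95.7 to 99.2% of its UMIs in control callus and 91.9 to 97.4% in GC callus. Control and GC callus gave 2073 and 2328 chondrocyte-like cells, 454 and 537 hypertrophic, 170 and 161 stromal-like and 118 and 193 osteoblast-like. Markers of each class were present, with Col2a1 at 59656 and 44798 CPM in chondrocyte-like cells and Col10a1 at 33443 and 26310 CPM in hypertrophic cells. Col3a1 stood at 6623 and 7061 CPM in stromal-like cells and Ibsp at 24969 and 28956 CPM in osteoblast-like cells. Ibsp and Col10a1 were also among the leading genes of chondrocyte-like clusters, and stromal-like cells held Col2a1 at 6659 and 6199 CPM. Other stromal-like markers differed between libraries, with Cxcl12 at 280 and 139 CPM and Postn at 1110 and 1817 CPM. Their part in the values of Wnt4, Frzb and Sfrp2 was not tested.

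**Figure D1:**
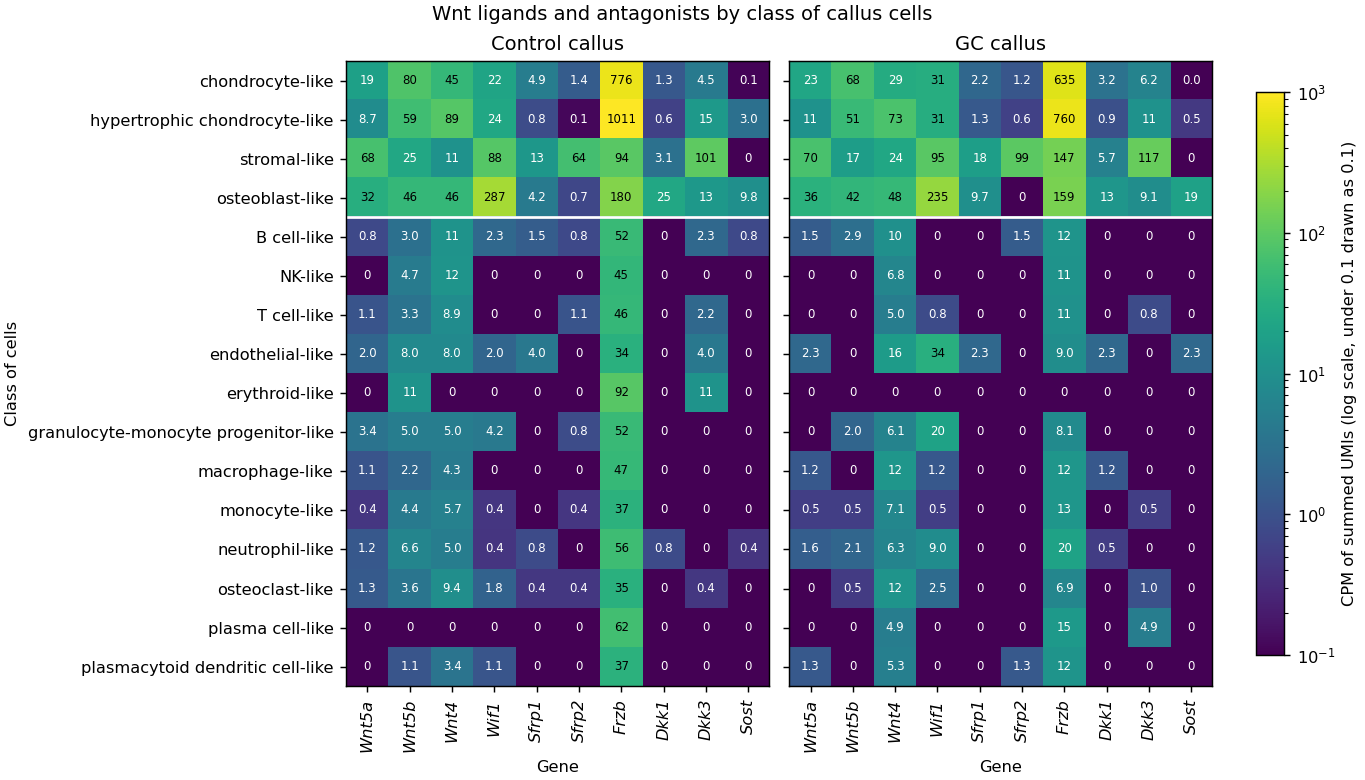
Heat map of CPM (log color scale, printed in each field) for the 10 genes in each of the 16 named classes of control callus and GC callus. The 4 skeletal classes above the white line hold the high values, and below it Frzb stands at 34 to 92 CPM in control and at 0 to 20 CPM in GC.

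Among the ligands, Wnt5a, which mostly signals without beta-catenin, was a gene of the stromal-like cells, and Wnt5b, its close relative in growth plate cartilage, one of the chondrocytes. In control callus Wnt5a stood at 68.1 CPM in stromal-like (58.4 to 78.9), 32.4 in osteoblast-like (23.7 to 43.2), 19.0 in chondrocyte-like (17.9 to 20.2) and 8.73 in hypertrophic cells (6.84 to 10.98). No neighboring intervals in that order overlapped, and the GC callus kept the order at 69.9, 35.8, 23.4 and 11.02 CPM. Wnt5b ran almost the other way, from 79.7 CPM in chondrocyte-like (77.3 to 82.1) and 58.8 in hypertrophic (53.7 to 64.3) to 46.4 in osteoblast-like (35.9 to 59.1) and 25.1 in stromal-like cells (19.4 to 32.0). Hypertrophic and osteoblast-like levels of Wnt5b were not separated by their intervals in control or in GC callus. Chondrocyte-like cells held 86.5% of the control callus UMIs of Wnt5b and 77.0% of those of Wnt5a, and were the most numerous of the skeletal classes.

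Wnt4, a ligand of cartilage and joint tissue, was highest by class in hypertrophic cells. Control levels were 88.8 CPM in hypertrophic (82.6 to 95.5), 46.4 in osteoblast-like (35.9 to 59.1), 45.5 in chondrocyte-like (43.7 to 47.3) and 10.8 in stromal-like cells (7.20 to 15.7). Osteoblast-like and chondrocyte-like levels were not separated. The control stromal-like level was also that of B cell-like cells, 11.3 CPM (6.30 to 18.6). In control trabecular bone, B cell-like cells held 6 UMIs of Wnt4, 3.18 CPM (1.17 to 6.91). Empty droplets of that library held 0, with an upper limit of 7.93 CPM, so the droplet and B cell-like levels were not separated. Those of GC trabecular bone held 1 UMI, 1.96 CPM.

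By class, Frzb, a Frizzled-related protein of cartilage that binds Wnt proteins, was highest in hypertrophic cells. Of the other antagonists that bind Wnt proteins, Wif1 was highest in osteoblast-like cells and Sfrp2 in stromal-like cells. Frzb stood in control callus at 1011 CPM in hypertrophic, 776 in chondrocyte-like, 180 in osteoblast-like and 94.0 in stromal-like cells, with no overlap of neighboring intervals. Wif1 stood at 287 CPM in osteoblast-like (260 to 316), 88.2 in stromal-like, 23.8 in hypertrophic (20.6 to 27.3) and 21.9 in chondrocyte-like cells (20.7 to 23.2), of which only the hypertrophic and chondrocyte-like levels were not separated. Sfrp2 stood at 63.8 CPM in stromal-like cells (54.5 to 74.3) and at no more than 1.45 CPM in the other skeletal classes. Its stromal-like UMIs came from few cells, 26 of 170 in control and 20 of 161 in GC, with up to 33 and 56 UMIs in a single cell. In B cell-like cells 1 of 631 and 1 of 395 held a UMI of Sfrp2, at median depths of 1927 and 1681 UMIs against 12090 and 11393 in stromal-like cells. After every cell was thinned to 1000 UMIs, the stromal-like share was 4.82% in control and 5.00% in GC, and the B cell-like share 0.168% and 0.286%. Sfrp1, a relative of Sfrp2, was low throughout, at 13.2 CPM in stromal-like (9.11 to 18.4), 4.93 in chondrocyte-like, 4.22 in osteoblast-like and 0.837 in hypertrophic cells.

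The co-receptor antagonists were sparse. Dkk1, which osteoblasts and osteocytes make, stood in control callus at 24.6 CPM in osteoblast-like cells (17.1 to 34.2), 3.09 in stromal-like, 1.28 in chondrocyte-like and 0.598 in hypertrophic cells. Sost, the osteocyte gene, had 14 UMIs in 3 of 118 osteoblast-like cells of control callus and 32 UMIs in 4 of 193 of GC callus. Hypertrophic cells held 25 UMIs of Sost in 5 cells of control callus, 15 of them in a single cell, and 4 UMIs in 3 cells of GC callus. In stromal-like cells Sost had 0 UMIs in both libraries. These counts rest on single cells, and no level of Sost is compared between libraries. Dkk3, a divergent member of the Dickkopf family, was a stromal-like gene, at 101 CPM (89.1 to 114) against 14.7 in hypertrophic, 13.4 in osteoblast-like and 4.53 in chondrocyte-like cells. Its hypertrophic and osteoblast-like levels were not separated.

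Free RNA in the droplets was measured for the same genes. Frzb reached 580 CPM in the empty droplets of control callus (532 to 630) and 51.8 CPM in its B cell-like cells, against 11.7 CPM in B cell-like cells of GC callus. Empty droplets of control callus held Wnt5b at 32.7 CPM, Wnt4 at 26.4 and Wnt5a at 12.7. No empty droplets are listed for GC callus. A UMI of Frzb was found in 95.1% of control and 82.5% of GC chondrocyte-like cells, with median depths of 25054 and 7335 UMIs, and in 10.6% and 2.03% of B cell-like cells, with median depths of 1927 and 1681. Thinned to 1000 UMIs, which left out 43 and 137 chondrocyte-like and 34 and 45 B cell-like cells, the shares were 48.1% and 42.4% in chondrocyte-like and 5.53% and 0.571% in B cell-like cells. For each 100 UMIs of Col2a1, a cartilage collagen, there were 2.41 UMIs of Frzb in B cell-like, 1.30 in chondrocyte-like, 6.20 in hypertrophic, 3.17 in osteoblast-like and 1.41 in stromal-like cells of control callus. In GC callus the numbers were 1.33, 1.42, 7.25, 5.14 and 2.38.

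The question of the GC comparison is whether cells of the same class held more or less of each message after GC. A gene was counted as measured in a class with at least 50 UMIs over both libraries, and a difference of 2-fold was read from the log2 ratio of GC over control after adding 5 CPM to both. Ratios printed without "log2" add nothing. Of the 40 pairs of gene and skeletal class, 29 were measured, and 0 of the 29 differed by 2-fold or more on that scale. Differences of that size were rare among all genes measured in the same classes: 0.722% in chondrocyte-like, 0.891% in hypertrophic, 1.8% in stromal-like and 1.79% in osteoblast-like cells. A gene under 5 CPM in control cannot be 2-fold lower on that scale. Without the added amount, Sfrp1 (ratio 0.443) and Dkk1 (2.53) in chondrocyte-like cells and Wnt4 (2.21) in stromal-like cells were past 2-fold. Of the 29 pairs, 14 were lower in GC, and the median log2 ratio was 0.04.

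In chondrocyte-like cells 5 of 9 measured genes were lower in GC, where 45.1% of all genes were lower, with a median log2 ratio of -0.06 against 0.02 for all genes. In hypertrophic cells 4 of 6 were lower, where 52.1% of all genes were, with a median of -0.23 against -0.02. In osteoblast-like cells 4 of 6 were lower, where 45.9% of all genes were, with a median of -0.14 against 0.04. The interval of the ratio lay below 1 for 2 of these genes, and each of the 6 signs turned under at least 1 alternative setting. Stromal-like cells went the other way, with 1 of 8 lower where 55.3% of all genes were, and a median of 0.26 against -0.04. The interval of the ratio lay above 1 for 3 of these genes, Wnt4, Sfrp2 and Frzb. In chondrocyte-like cells it lay below 1 for 4 genes and above 1 for 4, and in hypertrophic cells below 1 for 4 and above 1 for 1. The share of all genes whose interval leaves out 1 was not taken, so these counts have none beside them. The stromal-like signs of Wnt5a, Wif1 and Dkk3 turned under at least 1 alternative.

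**Figure D2:**
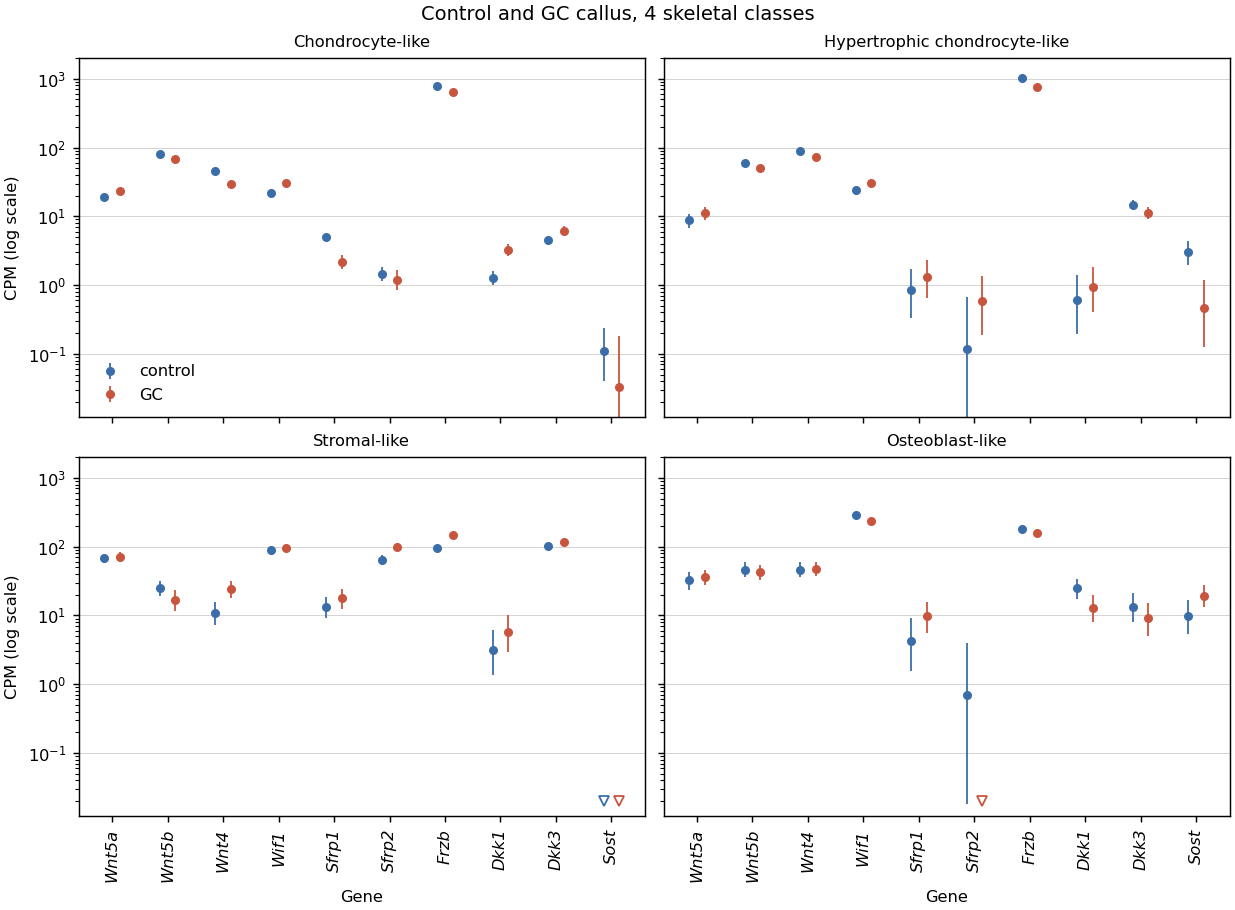
CPM (log axis) of the 10 genes in the 4 skeletal classes of control callus (blue) and GC callus (red), with 95% Poisson intervals for counting error and open triangles for 0 UMIs. Most pairs of points lie close together, with Wnt4 in chondrocyte-like cells at 45.5 and 29.3 CPM and Frzb in stromal-like cells at 94.0 and 147 CPM among the wider gaps.

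Wnt4 was lower in GC in both cartilage classes and higher in stromal-like cells. Chondrocyte-like cells held 2479 UMIs in control and 884 in GC, 45.5 and 29.3 CPM, a ratio of 0.644 (0.595 to 0.695). Hypertrophic cells stood at 88.8 and 72.6 CPM, a ratio of 0.817 (0.733 to 0.910). Stromal-like cells went from 28 to 50 UMIs, 10.8 to 23.9 CPM, a ratio of 2.21 (1.37 to 3.65) and a log2 ratio of 0.87. That control level is the B cell-like level of the library, 11.3 CPM. With the B cell-like level of each library subtracted the log2 ratio was 1.90, but whether that level of Wnt4 is free RNA was not tested. The subtraction takes off the same CPM at any depth. B cell-like cells were shallower, with a median of 1799.5 UMIs over both libraries against 11864 in stromal-like cells. Whether it takes off too much was not tested. Osteoblast-like cells stood at 46.4 and 48.0 CPM, a ratio of 1.03 (0.736 to 1.45). The sign of Wnt4 in chondrocyte-like, hypertrophic and stromal-like cells was the same under every alternative setting in which the pair was measured. Those were 18, 16 and 12 alternatives. Some of them, a changed added CPM or minimum of UMIs, cannot turn a sign and are no check of it. The size of the Wnt4 ratio in stromal-like cells was not the same, with log2 ratios from 0.41 to 1.90, past 2-fold under 4 of the alternatives.

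Wnt5b was lower in GC in the cartilage classes, and Wnt5a was higher in chondrocyte-like cells. In chondrocyte-like cells Wnt5b stood at 79.7 and 68.0 CPM, a ratio of 0.853 (0.809 to 0.899), and in hypertrophic cells at 58.8 and 50.9 CPM, a ratio of 0.865 (0.758 to 0.986). The hypertrophic sign turned after thinning, to a log2 ratio of 0.18. Stromal-like cells held Wnt5b at 25.1 and 16.8 CPM, but with 65 and 35 UMIs the interval of the ratio, 0.429 to 1.02, included 1. Wnt5a stood at 19.0 and 23.4 CPM in chondrocyte-like cells, a ratio of 1.23 (1.12 to 1.36). That sign turned, to a log2 ratio of -0.34, when cells of both libraries were called by a UMI cutoff alone. In the main calling a test also kept smaller barcodes of control callus, while every barcode listed for GC callus was taken. The callus libraries were thus called by different rules, and the part of this in the signs was not tested. In hypertrophic cells Wnt5a stood at 8.73 and 11.02 CPM, and the interval of the ratio, 0.920 to 1.74, included 1. In stromal-like cells, where Wnt5a was highest, it stood at 68.1 and 69.9 CPM, a ratio of 1.03 (0.819 to 1.29).

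Frzb was lower in GC in both cartilage classes and higher in stromal-like cells, the same layout as Wnt4. Chondrocyte-like cells held 42341 and 19192 UMIs, 776 and 635 CPM, a ratio of 0.818 (0.804 to 0.832), which turned to a log2 ratio of 0.18 with the UMI cutoff alone. Hypertrophic cells stood at 1011 and 760 CPM, a ratio of 0.751 (0.727 to 0.776), with the same sign under every alternative that measured it. Stromal-like cells stood at 94.0 and 147 CPM, a ratio of 1.57 (1.32 to 1.86). With the B cell-like level of each library subtracted, the log2 ratio of Frzb in stromal-like cells was 1.58 in place of 0.62. As for Wnt4, that level comes from shallower cells, and whether its subtraction takes off too much was not tested. Osteoblast-like cells stood at 180 and 159 CPM, and the interval of their ratio, 0.741 to 1.05, included 1.

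Wif1 was higher in GC in the cartilage classes, at 21.9 and 31.0 CPM in chondrocyte-like cells, a ratio of 1.42 (1.30 to 1.54), and at 23.8 and 30.7 CPM in hypertrophic cells, a ratio of 1.29 (1.07 to 1.56). The chondrocyte-like sign turned with the UMI cutoff alone, to a log2 ratio of -0.07. In osteoblast-like cells, where its level was highest, Wif1 stood at 287 and 235 CPM, a ratio of 0.819 (0.710 to 0.943). A single control cell held 80 of those 408 control UMIs, and without the cell with the most UMIs in each library the ratio was 0.902 (0.775 to 1.05). That sign also turned when each library was clustered alone, with the mean of per-cell CPM and after thinning.

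Sfrp2 stood in stromal-like cells at 63.8 and 99.1 CPM, a ratio of 1.55 (1.26 to 1.92), or 1.41 (1.11 to 1.79) without the cell with the most UMIs in each library. Sfrp1 stood in chondrocyte-like cells at 4.93 and 2.18 CPM, with 269 and 66 UMIs and a ratio of 0.443 (0.333 to 0.582). After adding 5 CPM that is a log2 ratio of -0.47, since so low a level lies under the added amount. Dkk1 went the other way in the same cells, at 1.28 and 3.24 CPM with 70 and 98 UMIs, a ratio of 2.53 (1.84 to 3.49) and a log2 ratio of 0.39. In osteoblast-like cells Dkk1 stood at 24.6 and 12.7 CPM, with 35 UMIs in 15 cells and 21 in 12, a ratio of 0.518 (0.286 to 0.915). Without the cell with the most UMIs in each library the interval of that ratio was 0.297 to 1.13, which includes 1, and with each library clustered alone the log2 ratio was 0.21 in place of -0.74. Dkk3 stood in stromal-like cells at 101 and 117 CPM, a ratio of 1.16 (0.968 to 1.38), in chondrocyte-like cells at 4.53 and 6.19 CPM, a ratio of 1.37 (1.12 to 1.66), and in hypertrophic cells at 14.7 and 11.1 CPM, a ratio of 0.757 (0.573 to 0.998). Without the cell with the most UMIs in each library the hypertrophic ratio was 0.811 (0.608 to 1.08), whose interval includes 1. The signs of Dkk3 in both cartilage classes turned with the UMI cutoff alone, and that in stromal-like cells turned with at least 500 genes a cell and at Leiden resolution 0.5.

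The chondrocyte-like class was made of different clusters in each library. Cluster 3, led by Serpinh1, Col1a1 and Dcn, had 6 control and 1047 GC cells with a median of 2713 UMIs, and cluster 22, led by C1qtnf3 and Ucma, had 76 control and 2 GC cells. Clusters found in both libraries were cluster 1, led by Ibsp, Col11a1 and Hapln1, with 762 control and 681 GC cells, cluster 6, led by Ibsp, Col10a1 and Aldh1a3, with 565 and 423, and cluster 8, led by C1qtnf3, Ucma and Cnmd, with 664 and 175. Without cluster 3 the chondrocyte-like ratios were 0.636 for Wnt4, 0.813 for Frzb, 0.876 for Wnt5b, 1.37 for Wif1 and 1.19 for Wnt5a. Wnt4 was lower in GC in each of clusters 1, 6 and 8, with ratios of 0.514 (0.451 to 0.584), 0.714 (0.624 to 0.815) and 0.648 (0.532 to 0.783). Frzb was not lower in all of them. Its ratios were 0.639 in cluster 1, at 812 and 519 CPM, and 0.710 in cluster 6, at 1223 and 868 CPM. In cluster 8 its ratio was 1.20, at 433 and 518 CPM. The levels of Frzb in cluster 6 were above those of the hypertrophic class, 1011 and 760 CPM. Wnt5b ratios were 0.855, 0.710 and 0.951, and Wif1 ratios were 1.25, 1.06 and 1.35, with the interval for Wif1 in cluster 6, 0.854 to 1.30, including 1. Wnt5a ratios were 1.14, 1.07 and 1.06, and all of their intervals included 1. Sfrp1 ratios were 0.488, 0.727 and 0.604, with the interval in cluster 6, 0.309 to 1.59, including 1. The class ratio of Sfrp1, 0.443, lay under each of these, and cluster 8 held 135 of its 269 control UMIs. Dkk1 UMIs lay mainly in cluster 1, with 51 of 70 in control and 73 of 98 in GC.

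**Figure D3:**
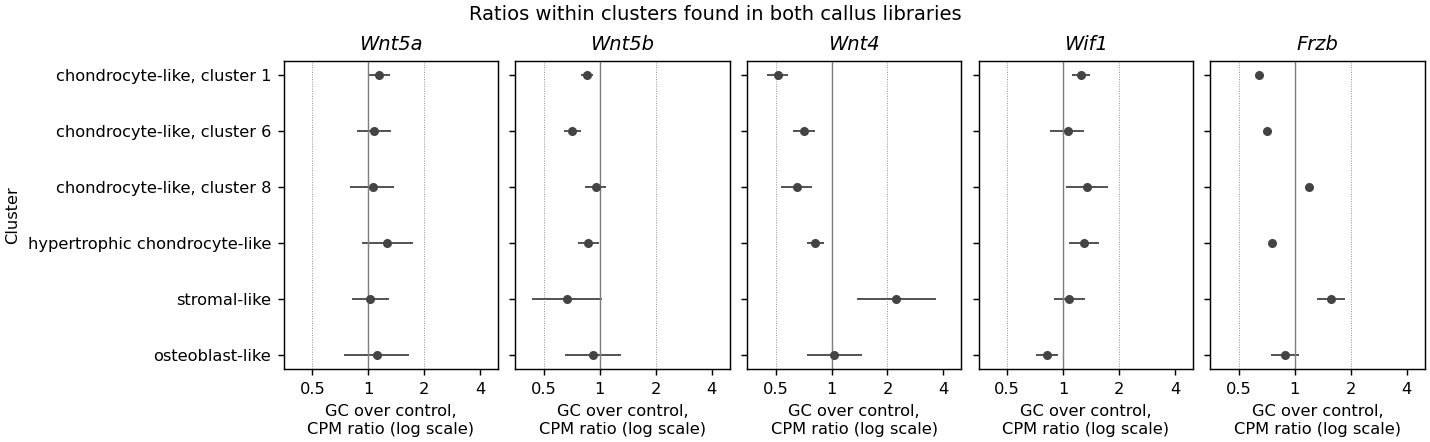
Ratio of CPM in GC over control (log axis, 95% counting intervals) for Wnt5a, Wnt5b, Wnt4, Wif1 and Frzb within clusters that hold cells of both callus libraries. Wnt4 lies under 1 in the 3 chondrocyte-like clusters, from 0.514 to 0.714, and at 2.21 in stromal-like cells, while Frzb lies on either side of 1 among the same clusters.

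Stromal-like cells were divided further after the data had been seen, into subclusters of 152, 137 and 42 cells. The first was led by Ccn3, Tnmd, a tendon marker, and Mfap4, the second by Chrdl2, Cilp and Hmga2, and the third by Rgs5 and Abcc9, both pericyte markers. Sfrp2 lay mainly in the Tnmd subcluster, at 105 CPM in control and 233 in GC, a ratio of 2.22 (1.77 to 2.80). Its UMIs there were 126 and 193. The Cilp subcluster stood at 33.0 and 12.6 CPM with 39 and 14 UMIs, a ratio of 0.381 (0.191 to 0.717). Up to 33 and 56 UMIs of Sfrp2 lay in a single stromal-like cell of control and GC, that of GC in the Tnmd subcluster. No ratio without those cells was taken for subclusters. Dkk3 was also highest in the Tnmd subcluster, at 161 and 194 CPM. Wnt4 stood there at 13.3 and 42.2 CPM, with 16 and 35 UMIs. Frzb was higher in GC in the Cilp subcluster, at 111 and 213 CPM, a ratio of 1.92 (1.54 to 2.39), and not in the Tnmd subcluster, at 89.0 and 77.2 CPM. By these sums the subcluster that stood higher in GC was a different one for Sfrp2 and for Frzb. The part of single cells in this was not tested.

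**Figure D4:**
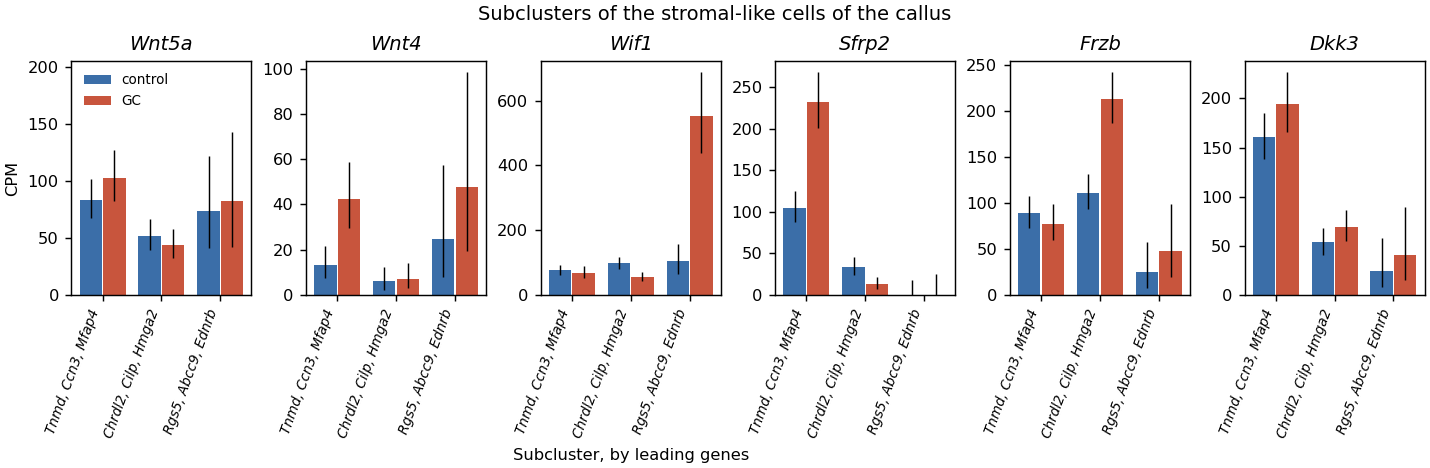
CPM (bars from 0, 95% counting intervals) of 6 genes in the 3 subclusters of stromal-like callus cells, control in blue and GC in red, each subcluster named by 3 of its leading genes. Sfrp2 and Dkk3 are high in the Tnmd subcluster, and the gap for Frzb lies in the Cilp subcluster at 111 and 213 CPM. Wif1 is higher in GC in the Rgs5 subcluster, at 103 and 553 CPM, and lower in the Cilp subcluster, at 98.3 and 55.7 CPM.

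Wif1 differed among these subclusters. Over the stromal-like class it stood at 88.2 and 95.3 CPM, a ratio of 1.08 (0.889 to 1.31). The Rgs5 subcluster, 18 control and 24 GC cells, stood at 103 and 553 CPM with 21 and 81 UMIs, a ratio of 5.35 (3.28 to 9.11). The Cilp subcluster went the other way, at 98.3 and 55.7 CPM with 116 and 62 UMIs, a ratio of 0.567 (0.410 to 0.778). The Tnmd subcluster stood at 75.7 and 67.6 CPM, a ratio of 0.892 (0.628 to 1.26). Without the Rgs5 subcluster the class stood at 86.9 and 60.8 CPM, a ratio of 0.699 (0.553 to 0.881), so the sign turned. In GC callus, Wif1 was also found outside the skeletal classes, with 50 UMIs in 20 of 3472 cells and up to 10 in a single cell, against 16 UMIs in 13 of 3899 cells of control callus. Endothelial-like cells held 15 of the 50 and neutrophil-like cells 17, against 1 and 1 UMIs of Wif1 in the same classes of control callus.

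Osteoblast-like cells were divided in the same way into subclusters of 146, 123 and 42 cells. The first, led by Fabp5, Gm26917 and Lars2, had a median of only 991.5 UMIs, against 13729 in the second, led by Rcan1, Gal and Plscr1. Of the 32 Sost UMIs in GC callus osteoblast-like cells, 29 lay in the first subcluster, and all 14 of control callus lay in the second. Wif1 stood in the first at 57.3 and 341 CPM, with 9 and 102 UMIs. In the second it stood at 272 and 240 CPM, with 279 and 259 UMIs and a ratio of 0.883 (0.742 to 1.05). The class as a whole held 408 and 387 UMIs of Wif1, a ratio of 0.819, and the rest of them lay in the third subcluster. That one, led by Fbln2, Ltbp2 and Prg4, had 12 control and 30 GC cells, and 15 in each library are needed for a ratio. Markers of the class differed between libraries as well, and not all in the same direction. Bglap stood at 1170 and 398 CPM and Dmp1 at 1151 and 520 CPM. Ibsp, Smpd3 at 807 and 1016 CPM and Phex at 528 and 541 CPM were higher in GC, and every other marker of the class was lower. The part of these markers in the values of Dkk1 and Wif1 was not tested.

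In trabecular bone no class was named chondrocyte-like or osteoblast-like, and stromal-like cells were few, 16 in control and 43 in GC. No gene of the 10 reached 50 UMIs in them, so none was measured there, where 15.9% of the 1219 genes measured differed by 2-fold or more. Dkk3 had 19 UMIs in control and 17 in GC, 153 and 61.4 CPM, a ratio of 0.402 (0.196 to 0.817). Wnt5a had 11 and 4 UMIs, 88.3 and 14.4 CPM, a ratio of 0.163 (0.0380 to 0.552). Sfrp1 had 6 and 11 UMIs, 48.2 and 39.7 CPM. Sfrp2 had 0 UMIs in control, with an upper limit of 29.6 CPM, and 17 in GC, 61.4 CPM (35.8 to 98.3). Wif1 had 3 and 0 UMIs, Wnt5b 1 and 2, Frzb 1 and 1, Wnt4 0 and 1, and Dkk1 and Sost 0 in both. The stromal-like cells of these libraries also differed in their own markers, with Col3a1 at 6184 and 246 CPM and Dcn at 15325 and 13207 CPM, and how far that bears on Dkk3, Wnt5a and Sfrp2 was not tested.

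Outside stromal-like cells of trabecular bone, Wnt4 was the gene found most often, with 51 UMIs over all cells in control and 95 in GC, 1.51 CPM (1.12 to 1.98) and 2.54 CPM (2.06 to 3.11). Neutrophil-like cells held 20 and 57 of these UMIs, 1.12 and 2.99 CPM, with different clusters of that class in each library. Monocyte-like cells stood at 2.64 and 3.84 CPM, a ratio of 1.45 (0.633 to 3.46). The remaining genes had between 0 and 23 UMIs in all cells of a trabecular library.

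The control libraries of both tissues were compared over all cells, which mixes tissue with cell makeup, since the callus library holds cartilage and the trabecular one mainly marrow cells. Of 9 genes measured, 6 were higher in callus by 2-fold or more after adding 5 CPM, where 26.8% of all 14677 genes measured differed by 2-fold or more in either direction. These were Frzb at 646 CPM in callus and 0.0295 in trabecular bone (1 UMI), Wnt5b at 62.6 and 0.0295 (1 UMI), Wnt4 at 42.4 and 1.51, Wif1 at 25.5 and 0.118, Wnt5a at 16.8 and 0.325, and Dkk3 at 8.21 and 0.679 CPM. The smallest of these ratios was that of Dkk3, 12.1 (7.99 to 19.2), and Wnt4 followed at 28.2 (21.4 to 37.9). Sfrp1 stood at 4.02 and 0.177 CPM, a ratio of 22.7 (10.3 to 62.4), and stayed under 2-fold only after adding 5 CPM. Against a floor of 3 UMIs in the trabecular library, Sfrp2 stood 35.3-fold higher in callus and Dkk1 16.9-fold higher. The lower limits of their exact intervals were smaller, at 28.5 and 13.5. Sost, with 47 and 0 UMIs, was not measured.

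The receptors, co-receptors, remaining ligands and targets of the pathway, 72 genes in 8 lists, were read in the same cells. In chondrocyte-like cells 49 of them were measured, 28 higher and 21 lower in GC with a median log2 ratio of 0.04, and 1 past 2-fold, beside 45.1% of all genes lower and 0.722% past 2-fold in these cells. In stromal-like cells 35 were measured, 17 higher and 18 lower with a median of 0.00 to the second decimal, and 2 past 2-fold, beside 55.3% of all genes lower and 1.8% past 2-fold. The splits within single lists, given further on, rest on few genes and are read against the same shares. Sfrp5, a secreted antagonist related to Sfrp1, was lower in GC in both classes, at 132 and 52.4 CPM in chondrocyte-like cells, a ratio of 0.398 (0.377 to 0.421), and at 71.2 and 24.4 CPM in stromal-like cells, a ratio of 0.343 (0.247 to 0.470). Sfrp4, another relative, stood at 16.3 and 29.8 CPM in chondrocyte-like cells, a ratio of 1.83 (1.66 to 2.01). Dkk2 stood at 9.28 and 22.03 CPM in stromal-like cells, a ratio of 2.37 (1.42 to 4.06). Notum, an enzyme that removes the lipid of Wnt proteins, was the third antagonist measured in chondrocyte-like cells and is named after its values were seen, with 943 and 195 UMIs and a ratio of 0.373 (0.318 to 0.436). The median log2 ratio of the 3 measured antagonists in chondrocyte-like cells was -0.96.

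Rspo3, a secreted agonist that keeps Frizzled receptors at the surface, was the only R-spondin measured, at 9.13 and 6.06 CPM in chondrocyte-like cells, a ratio of 0.663 (0.557 to 0.787), and at 22.05 and 8.62 CPM in stromal-like cells, a ratio of 0.391 (0.217 to 0.674). Frizzled receptors divided 5 higher and 4 lower in chondrocyte-like cells, from Fzd7 at a log2 ratio of -0.26 to Fzd8 at 0.78, and 3 and 3 in stromal-like cells, from Fzd5 at -0.54 to Fzd9 at 1.004. Co-receptors and other receptors were higher in GC for 9 of 10 genes in chondrocyte-like cells, from Lgr4 at -0.03 to Kremen1, a receptor of Dkk1, at 0.55, and for 6 of 8 in stromal-like cells, from Lgr4 at -0.31 to Lrp4, which binds sclerostin, at 0.66. Intracellular components divided 6 higher and 5 lower in chondrocyte-like cells, from Btrc at -0.27 to Dvl3 at 0.30, and 4 and 5 in stromal-like cells, from Axin1 at -0.84 to Tcf7l2 at 0.35. Of the ligands outside the 10, 4 of 5 were lower in chondrocyte-like cells, from Wnt10b at -0.18 to Wnt7b at 0.06, and in stromal-like cells Wnt11 stood at -0.26 and Wnt10b at 0.56. For ligand release, Wls, the carrier of Wnt proteins, stood at 0.29 and Porcn, which attaches their lipid, at -0.04 in chondrocyte-like cells, and Wls at 0.17 in stromal-like cells. Of the pathway's target genes, 5 of 8 were higher in chondrocyte-like cells, from Tcf7 at -0.70 to Nkd2 at 0.50, and 1 of 5 in stromal-like cells, from Ccnd1 at -0.65 to Nkd2 at 0.15.

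**Figure D5:**
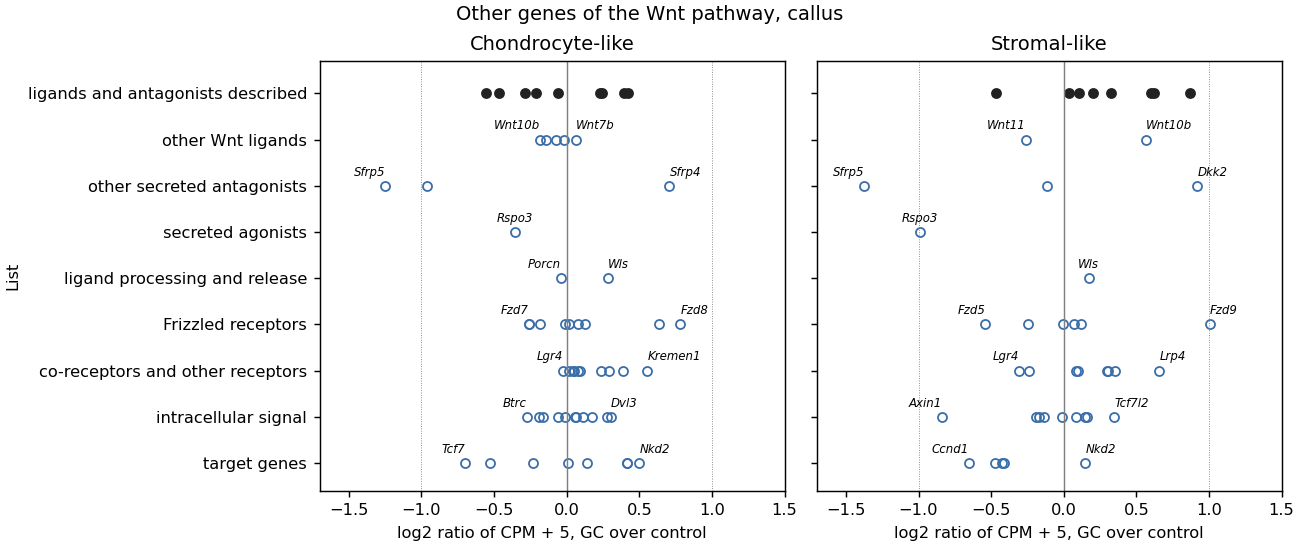
Log2 ratio of GC over control after adding 5 CPM for each measured gene of the 8 pathway lists (open circles) and of the 10 genes described (filled circles) in chondrocyte-like and stromal-like callus cells, with the lowest and highest gene of each list named and dotted lines at 2-fold. Points of most lists lie on both sides of 0, and Sfrp5 is the lowest in both classes, at -1.25 and -1.37.

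The genes whose levels followed each of these messages most closely over the 32 values of 16 classes in 2 callus libraries were ranked among 12429 genes by Pearson's r on the log2 scale. All values share the library, its depth and its free RNA, and r is given as a description. Wnt5a was followed by Kctd15 (0.976), Has1 (0.973) and Tbx18 (0.970), and Wnt5b by Panx3 (0.972), Col11a1 (0.961) and Smpd3 (0.959). Wnt4 was followed less closely, by Bmp2 (0.905), Irx5 (0.897) and Rasd1 (0.887). Wif1 was followed by Nnmt (0.971), Ptprd (0.956) and Slit2 (0.9495), Sfrp1 by Gli2 (0.9497), Fhl1 (0.946) and Hhat (0.940), and Sfrp2 by Cilp (0.964), Dpt (0.942) and Fndc1 (0.941). Frzb was followed by Pcolce2 (0.941) and Pcsk6 (0.933), Dkk1 by Bglap2 (0.967), Mmp16 (0.956) and Adgrd1 (0.954), and Dkk3 by Cpxm1 (0.955) and Scara5 (0.921). Sost had too few UMIs to be ranked. Among the 10 genes themselves, the closest pair was Wnt5b and Frzb at 0.919, and then Wnt5a and Sfrp1 at 0.904.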

How the data were processed

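Digested callus and trabecular bone were made into droplet libraries, 1 for each of 4 groups. The deposited values are raw counts of UMIs for each gene and barcode, not normalized. The submitters' processing notes name Cell Ranger 5.0.1, Seurat 3.2.0 and mm10, whereas the file headers give Cell Ranger version 4. Genes and gene lists were chosen with earlier results of these data known.

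In the 3 matrices that list empty droplets, barcodes over 10% of the 99th percentile of the 3000 largest were called cells, as were smaller ones with at least 500 UMIs that differed from empty droplets in a Monte Carlo test (10000 draws, adjusted p of at most 0.01). The GC callus matrix holds called cells only, and all 7762 of its barcodes, from 500 UMIs up, entered the filters. Of these, 2722 were over a cutoff set by the same rule, beside 2998 of the 7418 barcodes called in control callus. Cells with fewer than 200 genes, more than 10% mitochondrial UMIs or a high doublet score (0.8% removed per 1000 cells) were left out, which took 7418 and 7762 called cells of the callus libraries (control and GC) to 6714 and 6890, and 4206 and 5574 of the trabecular ones to 3832 and 4604. Both libraries of each tissue entered 1 clustering (2000 variable genes without 82 Wnt genes, 30 components, 15 neighbors, Leiden resolution 1). Of 24 callus and 27 trabecular clusters, those with at least 3 of their class's markers past 2-fold in at least 10% of cells were named, from 183 markers of 24 classes, unless their leading genes went against the name.

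Class levels are CPM of summed UMIs with exact Poisson intervals, shares have Clopper-Pearson intervals and ratios exact conditional intervals. A ratio adds 5 CPM on the log2 scale only, and needs 15 cells in each library. A gene counts as measured with at least 50 UMIs over both libraries. Ratios under that minimum are also printed for some clusters and trabecular classes. Where a floor is named, a count of 0 allows 3 counts. The text names all 10 genes, the highest and lowest gene of each pathway list in chondrocyte-like and stromal-like cells, the 3 genes most correlated with each of the 10 that had at least 200 UMIs, and Fkbp5 and Tsc22d3, apart from correlated genes that are not reported here. Markers and leading genes were named after their values were seen. Python 3.11.15 with numpy 2.4.6, scipy 1.17.1, scikit-learn 1.9.0 and leidenalg 0.10.2 was used. Ratios, intervals, thinning and cell calling were tested on simulated counts. Those counts had no spread between cells beyond counting error, so they do not cover genes held by few cells. Alternatives (17 planned, 2 chosen after seeing the data) covered cell calling, filters, doublets, clustering, added CPM, minimum UMIs, class level, depth, background, centring, fold, clusters within a class and single cells with many UMIs.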

Additional observations from a re-analysis of the deposited data

Results flagged for a closer look

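Over all cells, Wnt4 differed in opposite directions in the 2 tissues. In callus it was lower in GC, at 42.4 and 32.3 CPM and a log2 ratio of -0.35, and in trabecular bone higher, at 1.51 and 2.54 CPM and a log2 ratio of 0.21. The difference between tissues was not tested, and there is 1 library on each side.

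A cluster of 199 callus cells, all from the GC library and led by Cxcl12, Ibsp and Bmp2, carried chondrocyte markers but stayed unnamed and entered no comparison of classes, though its 53 UMIs of Wnt4 are part of the value over all cells. Its cells held Frzb at 518 CPM, Wnt5b at 57.7, Wif1 at 52.4, Wnt4 at 31.5, Wnt5a at 26.8 and Dkk3 at 13.1 CPM, all above the B cell-like level of that library.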

How the results depend on the processing

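No paired analysis was possible because each group holds 1 library. Depth limits Sost, Dkk1, Sfrp1 and every gene in trabecular stromal-like cells, and nothing here separates GC from other differences between a pair of libraries. Of the 29 pairs of gene and skeletal class, 13 had the same sign under every alternative that measured them and 16 another sign under at least 1, and where a sign turned the cause was not tested. Alternatives that change the added CPM or the minimum of UMIs cannot turn a sign. Leaving out clusters within a class does not touch hypertrophic and osteoblast-like cells. The count of 13 thus rests on fewer alternatives than were run. Shares over all genes were taken under the main setting only. The counts under alternatives that follow, of pairs and of pathway genes, therefore have no such share beside them and show only how the counts move. Against 0 of 29 pairs past 2-fold, the count was 1 with the UMI cutoff alone, with 1 CPM added and with the mean of per-cell CPM, 2 with each library clustered alone (of 22) and with the B cell-like level subtracted, and 4 at 1.5-fold. The pairs were Wnt4 in stromal-like cells under the UMI cutoff (log2 ratio 1.12), 1 CPM (1.08), the mean (1.08) and the subtraction (1.90), Frzb in stromal-like cells under the subtraction (1.58), and Wif1 in stromal-like (1.07) and Frzb in osteoblast-like cells (-1.37) with libraries clustered alone. The subtraction took off the same CPM at any depth, and whether that is too much was not tested. Against 14 of 29 pairs lower in GC, the count was 9 of 21 at 5% mitochondrial UMIs and without doublet removal, 9 of 18 at Leiden resolution 0.5, 9 of 22 with libraries clustered alone and 5 of 9 after thinning, since fewer classes or pairs were then given. For the pathway lists in chondrocyte-like cells, 1 gene past 2-fold became 3 with the UMI cutoff alone and with 1 CPM added, 2 without doublet removal and with Wnt genes in the clustering, 4 with libraries clustered alone, 0 with the mean and after thinning, 5 with the subtraction and 6 at 1.5-fold. In stromal-like cells, 2 became 1 with the UMI cutoff alone, 5% mitochondrial UMIs, 500 genes, no doublet removal, Leiden resolution 0.5 or 2, libraries clustered alone or 20 CPM added, 4 with 1 CPM added, 0 after thinning, 6 with the subtraction and 7 at 1.5-fold. In trabecular stromal-like cells, a minimum of 20 UMIs measured 1 gene, Dkk3, and it was past 2-fold (1). Under the UMI cutoff, 500 genes and libraries clustered alone, that class could not be compared.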
